A study of Mus musculus with 8 samples.

Results

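The genes described here are those of the Wnt pathway: the secreted ligands, the frizzled receptors with their co-receptors, the antagonists, and the genes that carry the signal to the nucleus. They were chosen by symbol among the protein-coding genes of the deposited count table: every *Wnt*, *Fzd*, *Sfrp* and *Dkk* gene, and 16 genes taken by name (*Wif1*, *Lrp5*, *Lrp6*, *Axin1*, *Axin2*, *Ctnnb1*, *Lef1*, *Tcf7*, *Tcf7l1*, *Tcf7l2*, *Porcn*, *Wls*, *Rnf43*, *Znrf3*, *Lgr4* and *Notum*). This gave 53 of the 55416 genes in the table. The expression values come from RNA-seq of whole epidermis peeled from the back skin of mice at postnatal day 4 (P4). There were 4 control libraries, with the genotype label WT, and 4 libraries labelled *RoraEKO*. *RoraEKO* mice carry a floxed *Rora* gene and a Cre recombinase driven by the keratin 14 promoter, which is active in basal keratinocytes, and the control mice were littermates whose *Rora* and Cre alleles are not given further. *Rora* encodes a nuclear receptor that binds DNA as a monomer.

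Wnt proteins are lipid-modified signals that leave the cell with the help of *Porcn* and *Wls* and bind a frizzled receptor and an LRP co-receptor on a nearby cell. Binding stops the complex built on axin from degrading β-catenin, which then enters the nucleus and acts with TCF/LEF factors. In skin this pathway is best known for starting hair follicles and driving hair growth, and in the epidermis between follicles for maintaining basal cells.

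Library totals ran from 17286903 to 26705533 counts, and values are given as counts per 1000000 counts (CPM) after TMM scaling, which corrects for differences in library composition. A floor of 3 counts corresponds to 0.113 to 0.196 CPM and covers counting error only. The genotype test was the edgeR quasi-likelihood F test, run over the 13147 genes that passed a filter on low counts. A gene was called at a Benjamini-Hochberg adjusted p under 0.05 over all these genes and a fold change over 1.5. Each p-value measures the spread between these 8 samples. *Rora* itself had 212 ± 66.6 CPM in control and 196 ± 34.6 CPM in *RoraEKO* libraries (mean ± SD, n = 4), a log2 fold change of -0.11 (SE 0.25, edgeR adjusted p = 0.877), so the gene total, which also counts exons outside the deleted part, did not separate the genotypes. Therefore the libraries are referred to by their labels. *Xist* was at 416 and 527 CPM in control C1 and C6 and at most 0.0547 CPM in the other 6 libraries, so both libraries of female type are controls. In bulk epidermis, fewer cells of a type and less RNA per cell cannot be told apart.

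Of the 53 genes, 37 passed the filter and 16 did not. Among the 37, *Wnt7a* was called higher and *Wnt3* lower in the libraries labelled *RoraEKO*, and 35 were not called. Over all genes tested, 2.3% were called higher and 3.22% lower, and the Wnt genes were called at 2.7% in each direction, close to this background. The log2 fold change was positive in 15 and negative in 22 of the 37 genes, beside 5777 positive and 7370 negative over all genes tested. The median was -0.14, beside -0.04 over all genes tested. Among the Wnt genes this balance rested on control A1. Without control A1 the counts were 23 positive and 14 negative, with a median of 0.21, beside -0.02 over all genes tested. The sign changed in 12 genes (*Fzd2*, *Lef1*, *Notum*, *Porcn*, *Sfrp1*, *Tcf7l1*, *Wls*, *Wnt10a*, *Wnt11*, *Wnt3a*, *Wnt7b* and *Wnt9a*), none of which was called with or without control A1. The genotypes did not overlap in CPM in 4 genes (*Wnt7a*, *Wnt3*, *Wnt4* and *Tcf7l2*), or 10.8%, against 12.9% of all genes tested.

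*Wnt7a* and *Wnt3* are the genes called between genotypes, so the 250 bases before each start site are shown, taken from the GRCm39 genome at the canonical transcript start of the GENCODE annotation. *Wnt7a* lies on the minus strand of chromosome 6 at 91340959 to 91388460, and *Wnt3* on the plus strand of chromosome 11 at 103664976 to 103708853. The promoter windows, written 5′ to 3′ on the strand of the gene and without capitals because none of the motifs searched was found in them, are chr6:91388461-91388710 for *Wnt7a* and chr11:103664726-103664975 for *Wnt3*.
Wnt7a: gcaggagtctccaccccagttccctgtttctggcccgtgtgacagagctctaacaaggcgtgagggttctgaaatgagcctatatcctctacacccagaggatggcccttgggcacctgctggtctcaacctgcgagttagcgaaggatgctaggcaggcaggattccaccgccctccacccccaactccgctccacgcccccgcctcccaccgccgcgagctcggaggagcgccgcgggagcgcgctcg
Wnt3: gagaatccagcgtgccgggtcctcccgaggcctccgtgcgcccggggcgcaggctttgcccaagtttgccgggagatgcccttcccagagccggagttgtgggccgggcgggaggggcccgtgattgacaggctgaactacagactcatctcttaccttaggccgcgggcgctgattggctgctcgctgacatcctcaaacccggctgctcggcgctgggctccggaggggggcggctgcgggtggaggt
The windows have a GC content of 64.8% for *Wnt7a* and 68.8% for *Wnt3*. Searched on both strands were AGGTCA, the half-site that nuclear receptors of the ROR type bind, its longer form TAGGTCA, which contains it, and CTTTGA, the core bound by TCF/LEF factors. Among the promoters of 13115 tested genes, 11.5% held AGGTCA, 1.81% TAGGTCA and 11.9% CTTTGA. Of the 37 Wnt genes tested, AGGTCA stood in 4 (*Notum*, *Wnt16*, *Lgr4* and *Rnf43*), TAGGTCA in 1 of these (*Notum*) and CTTTGA in 5 (*Tcf7l1*, *Notum*, *Wif1*, *Axin2* and *Lrp6*), and none of these genes was called between genotypes.

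Of 19 ligand genes, 11 passed the filter, and both calls fell among them. *Wnt7a*, known for dorsal patterning of the limb, was a rare transcript in control epidermis, at 0.38, 0.38, 0.09 and 0.26 CPM in A1, B1, C1 and C6, which are 10, 7, 2 and 7 counts. In the libraries labelled *RoraEKO* it stood at 1.96, 1.68, 3.37 and 4.34 CPM in A3, B4, C2 and C3, or 30, 41, 70 and 87 counts. The groups did not overlap, and the lowest *RoraEKO* library was far above the highest control library. The means were 0.28 ± 0.136 CPM in control and 2.84 ± 1.25 CPM in *RoraEKO* libraries (SD, n = 4), a fitted 9.95-fold difference (log2 3.31, SE 0.44, edgeR adjusted p = 0.00376). *Wnt7a* passed the filter through the *RoraEKO* libraries alone. With a minimum of 10 counts in every library it was not tested, and with every gene of at least 1 count tested, where the filter does not choose it, the log2 fold change was 3.36 (edgeR adjusted p = 0.000691). The log2 difference within each title letter was 2.12 in A, 1.90 in B and 3.93 in C. These come from log2 CPM at a prior count of 2, which draws low values together, and not from the fit. Over the 20 alternative fits that tested it, the log2 fold change was 2.91 to 3.51, and among libraries without *Xist* it was 2.93 (edgeR adjusted p = 0.0361). A pair of antisense RNA genes, *Gm67851* and *Gm67799*, share 205 and 35 exonic bases with *Wnt7a*. The libraries were made with a stranded kit, but whether the counting used the strand is not given in the sources used here. If it did not, reads from these genes were counted with *Wnt7a* or split between them. The same limit holds for 26 of the 37 genes tested, whose exons share bases with an exon on the opposite strand, most of all *Notum* (2037 bases with *Notumos*), *Lef1* (1518 with *Lef1os1*), *Fzd5* (1257 with *Gm38058*), *Fzd10* (995 with *Fzd10os*) and *Ctnnb1* (765 with *Ulk4*). *Wnt3* and *Wnt4* are among the 11 without such an overlap.

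*Wnt3*, a ligand that signals through β-catenin and is needed for the primitive streak of the embryo, was the abundant transcript that fell. Control libraries A1, B1, C1 and C6 had 44.9, 47.1, 43.5 and 37.7 CPM. *RoraEKO* libraries A3, B4, C2 and C3 had 26.0, 27, 27.7 and 26.4 CPM. Every *RoraEKO* library was below every control library, and the 4 *RoraEKO* values lay within 2 CPM of each other. The mean was 43.3 ± 4.01 CPM in control and 26.8 ± 0.731 CPM in *RoraEKO* libraries (SD, n = 4), which is 38.2% lower (log2 -0.69, SE 0.07, edgeR adjusted p = 0.00467). The difference was -0.79, -0.80 and -0.58 on the log2 scale within letters A, B and C. It was called in 21 of 21 alternative fits, at log2 fold changes of -0.78 to -0.63, libraries without *Xist* included (-0.73, edgeR adjusted p = 0.0279). *Wnt9b*, which lies 24320 bases away on the opposite strand, had 42 counts in all 8 libraries together and was not tested.

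**Figure D1:**
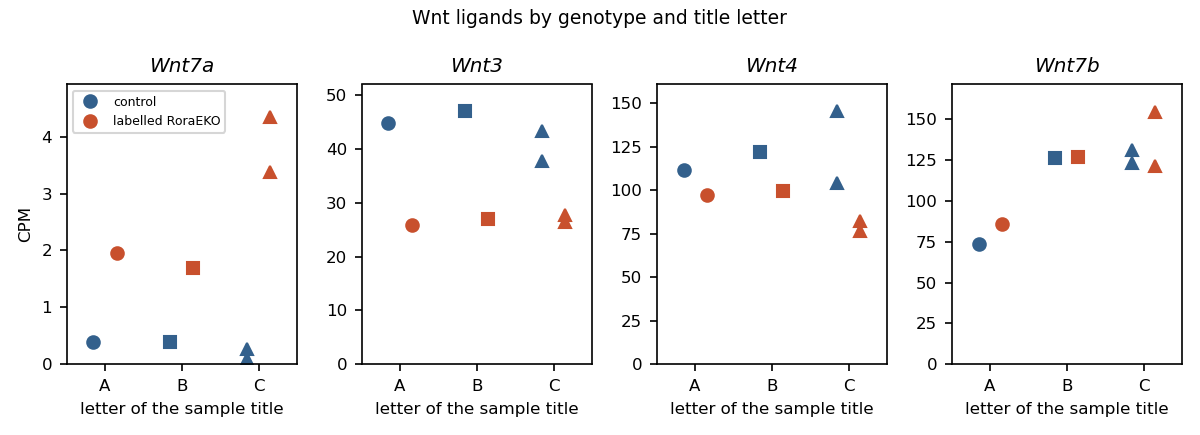
CPM of 4 Wnt ligands in each library on linear axes that start at 0, by the letter of the sample title, with 1 point per library, control in blue and libraries labelled RoraEKO in red. Wnt7a is higher and Wnt3 lower in every RoraEKO library, Wnt4 is lower without passing the test, and Wnt7b separates letter A from the other letters and not the genotypes.

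*Wnt4*, which acts in kidney and ovary development, had 111, 122, 145 and 104 CPM in control A1, B1, C1 and C6. In *RoraEKO* A3, B4, C2 and C3 it had 97.0, 99.3, 82.4 and 76.6 CPM. The groups did not overlap, but the gap between them was small beside the spread of the controls. The log2 fold change of -0.44 (SE 0.14, edgeR adjusted p = 0.119) did not pass the test here or in any of 21 alternative fits, where the adjusted p ran from 0.0735 to 0.394. *Wnt7b*, known for its part in lung growth, had 73.6, 126, 124 and 131 CPM in control A1, B1, C1 and C6 and 86.2, 127, 155 and 122 CPM in *RoraEKO* A3, B4, C2 and C3. The genotypes overlapped (log2 0.11, SE 0.26, edgeR adjusted p = 0.880), while both libraries of letter A were below all others.

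Per kilobase of exon, *Wnt7b* and *Wnt4* were the most abundant ligands, at 22.2 and 23.9 CPM per kilobase in control, followed by *Wnt3* at 13.8. In *RoraEKO* libraries the same 3 led, at 23.9, 17.6 and 8.51 CPM per kilobase, and *Wnt7a* had 0.863, against 0.0851 CPM per kilobase in control. The other 7 ligands tested were between 0.196 (*Wnt16*) and 1.53 (*Wnt11*) CPM per kilobase on average.

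None of these 7 passed the test. *Wnt3a*, an activator of β-catenin signalling, had 9.40, 1.53, 1.33 and 0.94 CPM in control A1, B1, C1 and C6 and 2.41, 1.77, 0.29 and 1.75 CPM in *RoraEKO* A3, B4, C2 and C3 (log2 -1.10, SE 0.95, edgeR adjusted p = 0.558). The negative fold change rests on control A1, since the other 3 control libraries lie inside the *RoraEKO* range. *Wnt10b*, which promotes hair growth and holds back fat cell formation, had a log2 fold change of 0.51 (SE 0.23, edgeR adjusted p = 0.297), with 3.28 to 5.44 CPM in control and 4.10 to 6.79 CPM in *RoraEKO* libraries. Without control A1 the log2 fold change of *Wnt3a* was 0.29 (edgeR adjusted p = 0.828). *Wnt11*, which mostly signals without β-catenin, had 23.4, 3.5, 3.79 and 3.15 CPM in control A1, B1, C1 and C6 and 8.42, 9.78, 3.90 and 6.09 CPM in *RoraEKO* A3, B4, C2 and C3. Control A1 was the highest of all, and the other 3 control libraries lay below all *RoraEKO* libraries, so the log2 fold change of -0.27 became 1.02 without control A1 (edgeR adjusted p = 0.0826). *Wnt5a*, of the same kind, had a log2 fold change of 0.05, which was 0.96 without control A1 (edgeR adjusted p = 0.338). For *Wnt10a*, in which mutations cause missing teeth and sparse hair, the value was -0.25, and 0.48 without control A1. *Wnt9a*, at 2.36 CPM in control A1 and 0.328 to 0.71 CPM in the other controls, went from -0.64 to 0.21. *Wnt16* stayed negative, at -0.44 and -0.42.

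The 8 ligands that did not pass the filter had at most 57 counts over the 8 libraries. *Wnt6* reached 1.14 CPM in control A1 and was at most 0.328 CPM elsewhere. *Wnt9b* ranged from 0.15 to 0.473 CPM in control and from 0 to 0.326 CPM in *RoraEKO* libraries. *Wnt5b* summed to 18 counts, *Wnt2* to 11 and *Wnt1* to 3, and *Wnt2b*, *Wnt8a* and *Wnt8b* had no count in any library, which allows up to the floor of 3 counts in each. Several Wnt genes are neighbours in the genome. *Wnt6* lies 5699 bases from *Wnt10a*, *Wnt3a* lies 15982 bases from *Wnt9a*, and *Wnt10b* and *Wnt1* overlap on opposite strands with 489 shared exonic bases, so that a read there cannot be given to one of them without strand.

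The genes for secretion were both well expressed and not called. *Porcn*, the enzyme that attaches the lipid, had 25.1, 30.1, 36.2 and 45.3 CPM in control A1, B1, C1 and C6. In *RoraEKO* A3, B4, C2 and C3 it had 34.5, 14.3, 48.8 and 39.5 CPM (log2 0.00, SE 0.43, edgeR adjusted p = 0.999). *RoraEKO* B4 stood below all 7 other libraries, and the other 3 *RoraEKO* libraries lay inside the control range or just above it. *Wls*, the carrier that brings Wnt proteins to the cell surface, had 69.2, 39.1, 30.7 and 27.9 CPM in control A1, B1, C1 and C6 and 47.1, 43.8, 25.8 and 32.7 CPM in *RoraEKO* A3, B4, C2 and C3, with overlapping groups (log2 -0.16, SE 0.35, edgeR adjusted p = 0.867). With library size alone as the scaling, both secretion genes had a negative fold change.

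**Figure D2:**
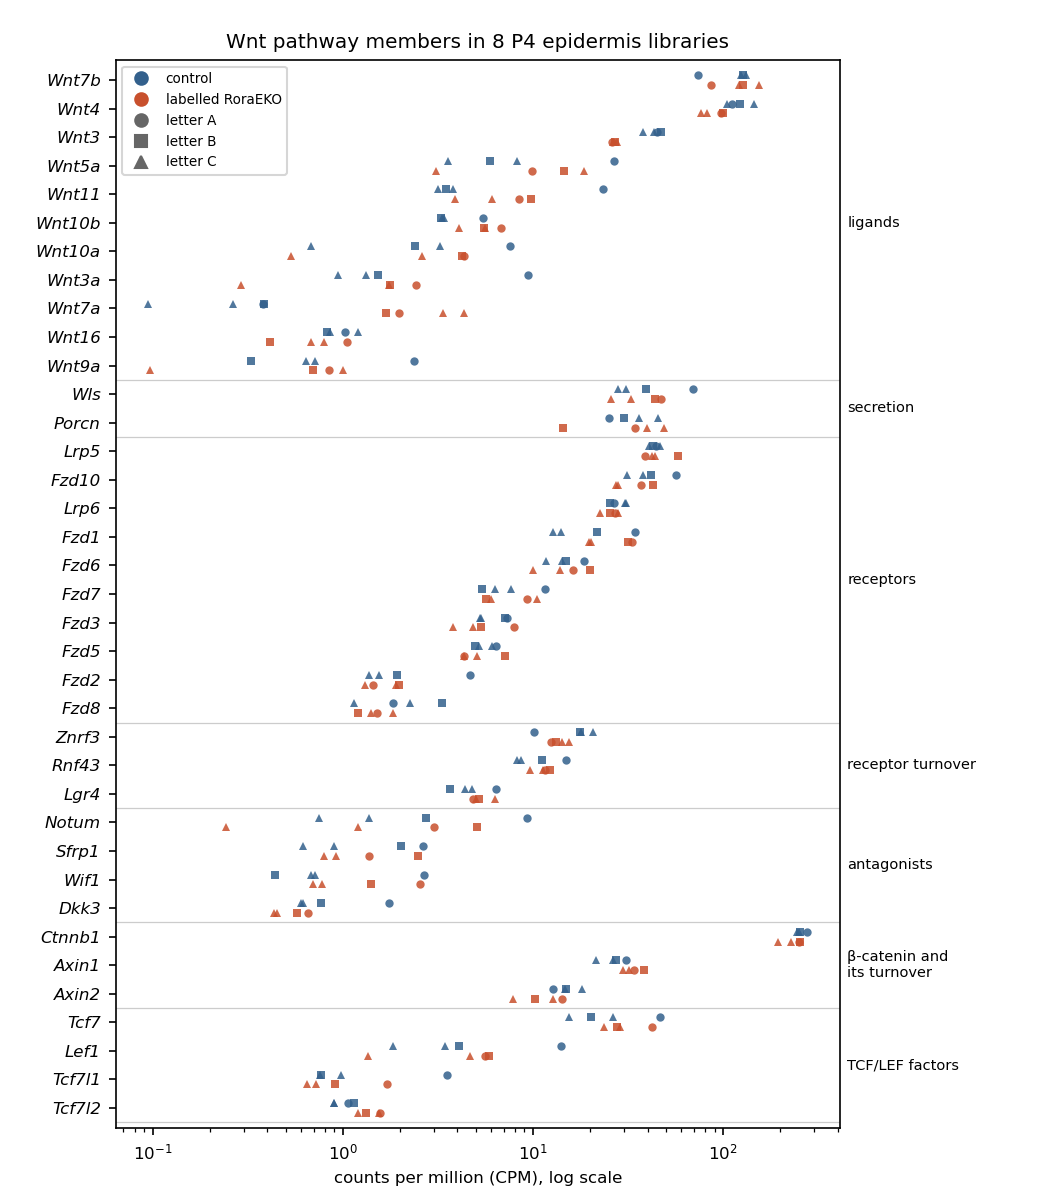
CPM of the 37 Wnt pathway genes tested, on a log axis, with 1 point per library; colour gives the genotype label, shape the letter of the sample title, and genes are grouped by role and ordered by mean CPM within a role. In most genes the red and blue points overlap, and in many the circles of letter A lie farthest right.

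Of 12 receptor genes, 10 were tested and none was called, with 4 positive and 6 negative log2 fold changes between -0.53 and 0.33 (2 and 8 with library size alone as the scaling). *Fzd10* was the most abundant frizzled gene per kilobase, at 12.9 CPM per kilobase in control and 10.4 in *RoraEKO* libraries. Its CPM were 56.6, 41.8, 31.1 and 37.7 in control A1, B1, C1 and C6, and 37, 42.7, 27.3 and 28.1 in *RoraEKO* A3, B4, C2 and C3. The groups overlapped (log2 -0.31, SE 0.24, edgeR adjusted p = 0.517). *Fzd1* came next at 5.58 CPM per kilobase over all libraries, with 12.8 to 34.4 CPM in control and 19.7 to 33.0 CPM in *RoraEKO* libraries (log2 0.33, SE 0.38, edgeR adjusted p = 0.680). Without control A1 the log2 fold changes were -0.13 for *Fzd10* and 0.70 for *Fzd1* (edgeR adjusted p-values of 0.755 and 0.152). *Fzd6*, which orients hairs across the skin, differed by 0.02 on the log2 scale (SE 0.25). The co-receptor *Lrp5* had 40.5 to 46.6 CPM in control and 38.8 to 57.6 CPM in *RoraEKO* libraries (log2 0.07, SE 0.13), and *Lrp6* 25.4 to 30.9 and 22.5 to 27.8 CPM (log2 -0.14, SE 0.10). The remaining frizzled genes, *Fzd2*, *Fzd3*, *Fzd5*, *Fzd7* and *Fzd8*, had log2 fold changes of -0.52, -0.19, -0.11, 0.03 and -0.53. *Fzd4* and *Fzd9* did not pass the filter, with at most 0.675 and 0.0761 CPM in any library.

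The genes that set how long receptors stay on the surface showed small differences. *Znrf3* and *Rnf43*, ubiquitin ligases that remove frizzled receptors, had log2 fold changes of -0.26 (SE 0.24) and 0.06 (SE 0.21), with edgeR adjusted p-values of 0.598 and 0.928. *Znrf3* had 10.1, 17.7, 17.8 and 20.8 CPM in control A1, B1, C1 and C6 and 12.5 to 15.5 CPM in *RoraEKO* libraries, so that all 4 *RoraEKO* values lay inside the control range. *Lgr4*, a receptor for R-spondins, which protect frizzled receptors from these ligases, had 3.66 to 6.36 CPM in control and 4.83 to 6.29 CPM in *RoraEKO* libraries (log2 0.15, SE 0.18, edgeR adjusted p = 0.790).

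Of 10 antagonist genes, 4 were tested, 1 with a positive and 3 with negative log2 fold changes, and none was called. Without control A1 the log2 fold changes were 0.58 for *Notum*, 0.26 for *Sfrp1*, 1.12 for *Wif1* and -0.32 for *Dkk3*, and none was called there either. *Notum*, an enzyme that removes the lipid from Wnt proteins, had 9.25, 2.73, 1.37 and 0.75 CPM in control A1, B1, C1 and C6. In *RoraEKO* A3, B4, C2 and C3 it had 3.0, 5.10, 0.24 and 1.2 CPM, and the groups overlapped (log2 -0.57, SE 1.14, edgeR adjusted p = 0.830). *Wif1*, which binds Wnt proteins outside the cell, was at 2.66 and 2.55 CPM in A1 and A3 and at 0.437 to 1.40 CPM in the other 6 libraries. *Sfrp1*, a decoy with a frizzled-like domain, had 0.615 to 2.63 CPM in control and 0.799 to 2.47 CPM in *RoraEKO* libraries. *Dkk3*, the divergent member of the Dickkopf family, had the most negative fold change of the 4 (log2 -0.83, SE 0.35, edgeR adjusted p = 0.360), with 1.75 CPM in control A1, 0.601 to 0.765 CPM in the other 3 control libraries and 0.434 to 0.652 CPM in *RoraEKO* libraries. *Dkk1* and *Dkk4*, of which the first is a strong inhibitor of LRP co-receptors, had no count in any library, and *Dkk2*, *Sfrp2*, *Sfrp4* and *Sfrp5* had 5, 4, 11 and 1 counts in all 8 libraries together.

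*Ctnnb1*, the gene for β-catenin, was the most abundant of all Wnt pathway genes chosen, at 31.4 CPM per kilobase in control and 28.4 in *RoraEKO* libraries. It had 276, 252, 245 and 252 CPM in control A1, B1, C1 and C6 and 252, 255, 193 and 227 CPM in *RoraEKO* A3, B4, C2 and C3. The groups overlapped and the difference was not called (log2 -0.14, SE 0.10, edgeR adjusted p = 0.649). *Axin1*, the scaffold of the complex that degrades β-catenin, had 30.7, 27.4, 26.3 and 21.4 CPM in control A1, B1, C1 and C6 and 33.8, 38.2, 31.8 and 29.8 CPM in *RoraEKO* A3, B4, C2 and C3. Control A1 exceeded *RoraEKO* C3, and the rest were apart (log2 0.34, SE 0.13, edgeR adjusted p = 0.228). *Axin2*, a related scaffold whose gene is switched on by β-catenin and is widely read as a sign of Wnt activity, had 12.8, 14.9, 14.8 and 18.1 CPM in control A1, B1, C1 and C6. In *RoraEKO* A3, B4, C2 and C3 it had 14.2, 10.2, 7.85 and 12.8 CPM. The groups overlapped, and the log2 fold change of -0.43 (SE 0.21, edgeR adjusted p = 0.292) did not pass the test.

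All 4 TCF/LEF genes were tested and none was called. *Tcf7* was the most abundant per kilobase, at 7.05 CPM per kilobase in control and 7.96 in *RoraEKO* libraries (log2 0.17, SE 0.38, edgeR adjusted p = 0.868). Without control A1 its log2 fold change was 0.56 (edgeR adjusted p = 0.212). *Lef1*, the factor tied to the hair follicle, had 14.0, 4.10, 3.46 and 1.84 CPM in control A1, B1, C1 and C6 and 5.61, 5.88, 1.35 and 4.64 CPM in *RoraEKO* A3, B4, C2 and C3, with control A1 far above the rest (log2 -0.43, SE 0.77, edgeR adjusted p = 0.816). *Tcf7l2* had 1.07, 1.15, 0.90 and 0.90 CPM in control A1, B1, C1 and C6 and 1.57, 1.31, 1.2 and 1.55 CPM in *RoraEKO* A3, B4, C2 and C3. Its groups did not overlap, but at 19 to 32 counts per library the log2 fold change of 0.49 (SE 0.12, edgeR adjusted p = 0.356) did not pass the test, nor did it in any of 21 alternative fits. *Tcf7l1*, which mostly acts as a repressor, had a log2 fold change of -0.64 (SE 0.58), with 3.54 CPM in control A1 and 0.649 to 1.70 CPM in the other 7 libraries.

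**Figure D3:**
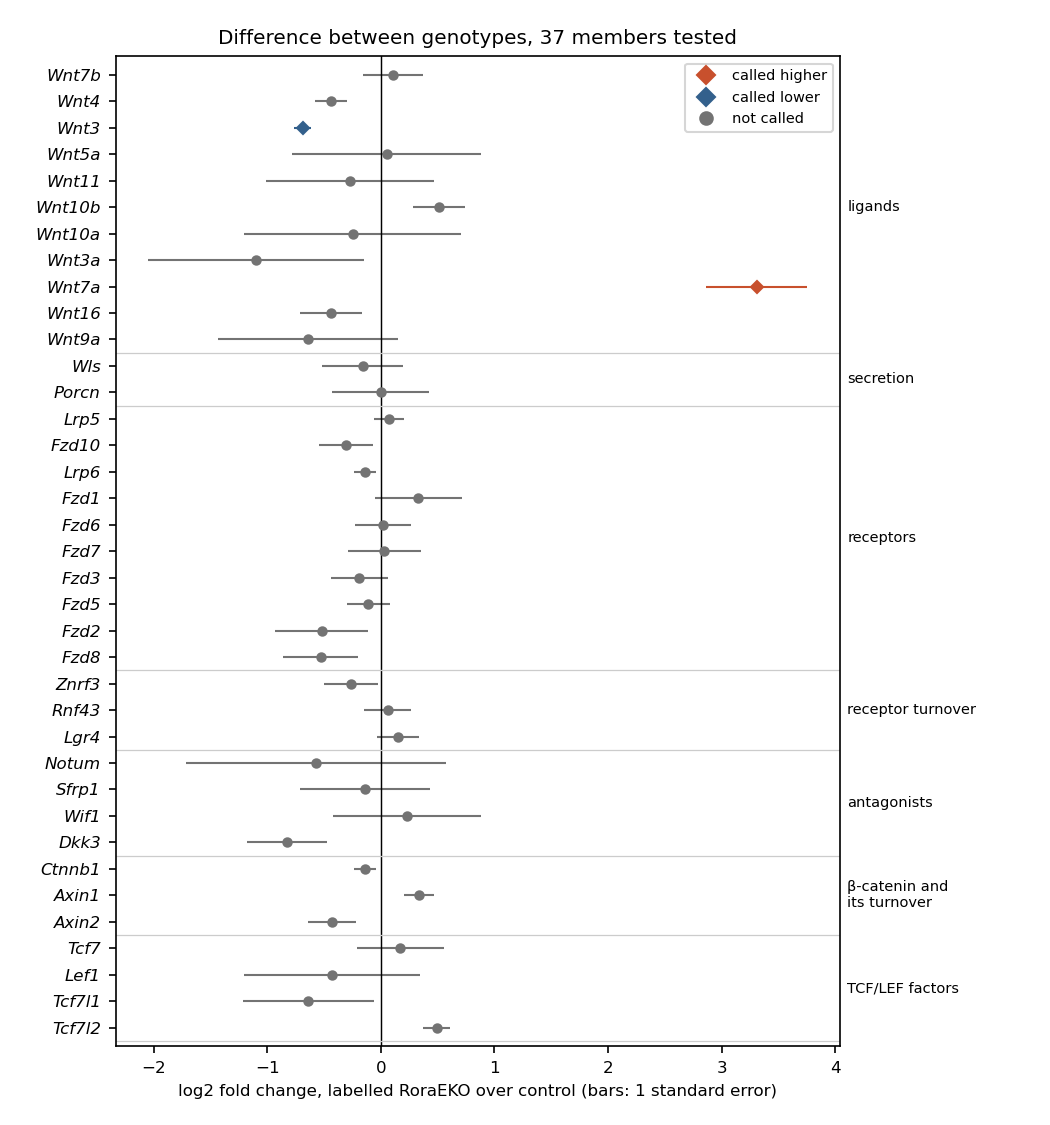
Log2 fold change of libraries labelled RoraEKO over control for the 37 Wnt pathway genes tested, with bars of 1 standard error (n = 4 per genotype), grouped by role. Wnt7a lies at 3.31 and Wnt3 at -0.69, and the other 35 genes, in grey, were not called.

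The 37 genes were also compared by the letter that opens the sample title. Each letter holds both genotypes, with A1 and A3 in letter A, B1 and B4 in letter B, and 2 libraries of each genotype in letter C, and the labels do not say what a letter marks. None of the 37 genes was called between letters at an edgeR adjusted p under 0.05, beside 0.0532% of all genes tested. At an unadjusted p under 0.05 there were 18 of the 37, or 48.6%, beside 24.1% of all genes tested, and the genotype comparison had 4 of the 37, or 10.8%, beside 18.2% of all genes tested. The count of genes called between letters was 1 in the non-legacy form of the test, 3 without *RoraEKO* A3 and 5 without control B1. It was 17 of 48 Wnt genes when all genes with at least 1 count were tested. The shares over all genes in these fits are not given here, so these counts are not read as particular to Wnt genes. DESeq2 was not run for the letters.

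The lowest adjusted p was that of *Fzd1* (edgeR adjusted p = 0.0533), which averaged 33.7, 26.6 and 16.7 CPM in letters A, B and C. *Wls* averaged 58.1, 41.5 and 29.3 CPM (edgeR adjusted p = 0.0583). *Wnt7b* ran the other way, at 79.9, 127 and 133 CPM (edgeR adjusted p = 0.0663). *Tcf7l1*, *Wif1* and *Notum* followed, each highest in letter A, at 2.62, 2.60 and 6.13 CPM, and lowest in letter C, at 0.776, 0.714 and 0.891 CPM. Letter A had the highest mean in 25 of the 37 genes, or 67.6%, beside 38.6% of all genes tested.

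A single library, control A1, was the highest of all 8 in 20 of the 37 genes, or 54.1%, beside 24.2% of all genes tested. It exceeded 2 times the median of the other 7 libraries in 13 of them, or 35.1%, beside 9.7% of all genes tested. The ratio was 6.74 for *Notum*, 6.14 for *Wnt3a*, 6.01 for *Wnt11*, 4.63 for *Tcf7l1*, 3.75 for *Wif1* and 3.42 for *Lef1*. These genes include ligands, antagonists and nuclear factors alike. *Wnt7a* and *Wnt7b* were the least of the 37 by this ratio, at 0.226 and 0.582.

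Summed markers of the inner root sheath and hair shaft, and of the hair matrix and placode, were also highest in control A1. The summed level of 15 markers of inner root sheath and hair shaft, all detected, was 59220 CPM in control A1, 29530 in B1, 12750 in C1 and 10790 in C6, and 41810, 39200, 20680 and 20870 CPM in *RoraEKO* A3, B4, C2 and C3. For 7 markers of hair matrix and placode the sum was 876 CPM in control A1, 243 to 413 CPM in the other control libraries and 305 to 584 CPM in *RoraEKO* libraries. Melanocyte, adipocyte and sebocyte markers were likewise highest in control A1, at sums of 143, 299.7 and 233 CPM. Of the 5 adipocyte markers in that sum, 1 passed the filter. None of the markers tested in these lists was called between genotypes. In a fit with the hair shaft marker sum as a covariate, *Wnt7a* and *Wnt3* had log2 fold changes of 3.32 and -0.71 (edgeR adjusted p-values of 0.00235 and 0.00163), the other 35 genes were not called, and *Fzd6*, *Fzd7* and *Rnf43* changed sign. Without control A1 the values of *Wnt7a* and *Wnt3* were 3.51 and -0.68. With the dermal fibroblast marker sum as a covariate, *Wnt7a* and *Wnt3* were at 3.16 and -0.68 (edgeR adjusted p-values of 0.00643 and 0.00916). The part of the marker lists other than hair shaft and dermal fibroblasts was not tested. Markers of the dermal papilla, a source of Wnt signals under the follicle, summed to at most 0.53 CPM in any library. They were lowest in control A1, at 0.0381 CPM, which is under the floor. The 11 markers of dermal fibroblasts summed to 2.98 to 7.62 CPM in control and 3.16 to 12.2 CPM in *RoraEKO* libraries. The 5 markers of spinous keratinocytes summed to 40410 to 67730 CPM in control and 82200 to 102800 CPM in *RoraEKO* libraries, with no overlap and no marker called, and their part in the differences of *Wnt7a* and *Wnt3* was not tested. The sums of 6 markers of granular keratinocytes overlapped, at 10780 to 16900 CPM in control and 10020 to 14420 CPM in *RoraEKO* libraries, and 1 of them (*Hrnr*) was called between genotypes. For 7 markers of basal keratinocytes the sums were 283 to 633 CPM in control and 304 to 1252 CPM in *RoraEKO* libraries, highest in B4, with none called, and the part of both lists was likewise not tested.

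**Figure D4:**
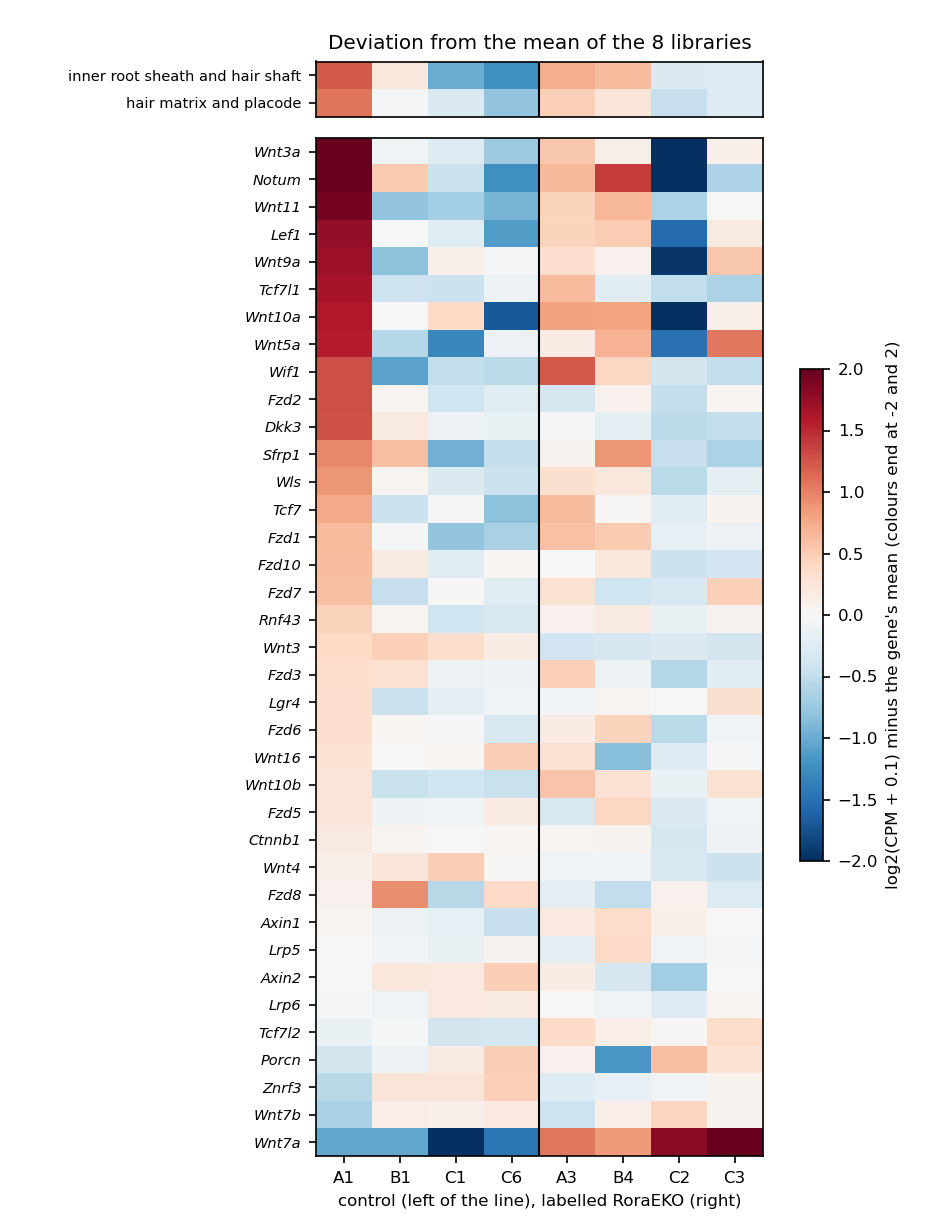
Log2(CPM + 0.1) of the 37 Wnt pathway genes tested, as the deviation from each gene's mean over the 8 libraries, with colours ending at -2 and 2, ordered by the deviation in control A1; the top rows give the summed hair markers in the same way. The A1 column is red from Wnt3a down through Fzd1, as it is for both hair marker sums, and Wnt7a and Wnt3 change colour at the line between genotypes.

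The rest of the pathway was read from a list of 89 further genes, of which 87 had an entry in the table and 67 were tested. Of these, 3 were called higher and 4 lower, and 60 were not called, and the median of the log2 fold changes was 0.02. These are 4.48% higher and 5.97% lower, beside 2.3% and 3.22% of all genes tested. The genotypes did not overlap in 18 of the 67, or 26.9%, beside 12.9% of all genes tested. The list was chosen with earlier results of these data known, so these shares cannot show an excess in the pathway. The 3 that rose act inside the cell: *Dvl1*, a dishevelled protein that passes the signal on from frizzled, *Tle1*, a co-repressor of TCF/LEF factors, and *Prickle2*, a planar cell polarity gene. The 4 that fell are *Ryk*, a Wnt receptor with an inactive kinase domain, *Ctnnbip1*, whose product blocks β-catenin from binding TCF factors, *Apcdd1*, a membrane inhibitor of Wnt signalling known from hereditary hair loss, and *Celsr3*, a large cadherin of the planar polarity family.

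*Ctnnbip1* was the most abundant of the 7 per kilobase. It had 298, 356, 324 and 315 CPM in control A1, B1, C1 and C6 and 110, 187, 172 and 116 CPM in *RoraEKO* A3, B4, C2 and C3. The groups were far apart, with a drop of 54.7% (log2 -1.14, SE 0.20, edgeR adjusted p = 0.0076). *Ryk* had 62.6 to 74.5 CPM in control and 39.6 to 48.7 CPM in *RoraEKO* libraries (log2 -0.67, SE 0.08, edgeR adjusted p = 0.00652). *Apcdd1* had 82.7 to 108 CPM in control and 49.1 to 69.6 CPM in *RoraEKO* libraries (log2 -0.68, SE 0.14, edgeR adjusted p = 0.0199). *Celsr3*, at lower levels, went from 3.46 to 5.07 CPM in control to 1.07 to 1.85 CPM in *RoraEKO* libraries (log2 -1.52, SE 0.21, edgeR adjusted p = 0.0063).

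*Dvl1* had 58.3, 54.8, 57.9 and 59.2 CPM in control A1, B1, C1 and C6 and 87.8, 115, 92.2 and 84.2 CPM in *RoraEKO* A3, B4, C2 and C3 (log2 0.72, SE 0.10, edgeR adjusted p = 0.00771). *Tle1* had 5.30 to 10.1 CPM in control and 13.1 to 15.2 CPM in *RoraEKO* libraries (log2 0.99, SE 0.20, edgeR adjusted p = 0.0173). For *Prickle2* the ranges were 2.95 to 4.64 and 5.22 to 11.5 CPM (log2 1.12, SE 0.27, edgeR adjusted p = 0.0305). In each of the 7 genes all *RoraEKO* libraries lay on one side of all control libraries. Among libraries without *Xist*, which leave 2 controls, 1 of the 3 (*Tle1*) and none of the 4 were still called, and over all genes the same fit called 147 higher and 167 lower, against 302 and 423. The log2 fold changes there were 0.80 for *Dvl1*, 1.41 for *Prickle2*, -0.67 for *Ryk*, -0.71 for *Apcdd1*, -1.11 for *Ctnnbip1* and -1.48 for *Celsr3*, with adjusted p-values of 0.0517 to 0.0791. Without control B1 the counts were 1 (*Dvl1*) and 3, beside 174 and 283 over all genes. Without *RoraEKO* C3 they were 1 (*Dvl1*) and 4, beside 188 and 287 over all genes. Without control A1 they were 5 and 4, beside 383 and 513 over all genes. Over 21 alternative fits, *Prickle2* was called in 15 and *Apcdd1* in 17, with adjusted p-values of up to 0.0973 and 0.0957, and the other 5 genes were called in 19 or 20.

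**Figure D5:**
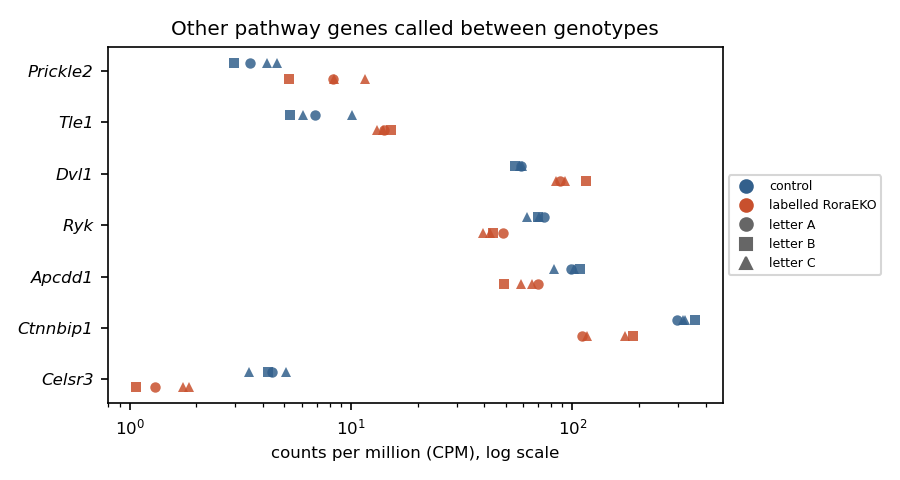
CPM of the 7 further pathway genes called between genotypes, on a log axis, with 1 point per library; colour gives the genotype label and shape the letter of the sample title. In each gene the 4 libraries labelled RoraEKO and the 4 control libraries do not overlap, with Prickle2, Tle1 and Dvl1 higher and Ryk, Apcdd1, Ctnnbip1 and Celsr3 lower.

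By list, with calls in either direction and too few genes in each to set against the 2.3% and 3.22% of all genes, the counts were 1 of 7 tested among co-receptors and other Wnt receptors, 1 of 6 among other inhibitors, 2 of 21 among intracellular transducers, 1 of 14 among nuclear cofactors and 2 of 11 among planar cell polarity genes. Of 6 R-spondins and LGR receptors in the list, *Lgr6* alone was tested, at a log2 fold change of -1.42 (SE 0.69, edgeR adjusted p = 0.271), or -0.64 without control A1, where it had 4.22 CPM against 0.413 to 1.64 CPM in the other controls. Of 13 genes reported as targets of β-catenin, 7 were tested and none was called, with a median log2 fold change of -0.01 and values from -0.76 to 0.40. *Myc*, the most studied of them, had 32.7 to 41.9 CPM in control and 16.0 to 32.4 CPM in *RoraEKO* libraries, groups that did not overlap (log2 -0.64, edgeR adjusted p = 0.115), and *Ccnd1*, a cyclin, had 8.37 to 15.1 and 4.58 to 10.1 CPM (log2 -0.76, edgeR adjusted p = 0.142). *Cd44*, a cell surface receptor for hyaluronan, went the other way without overlap, at 54.4 to 84.2 and 90.6 to 102.5 CPM (log2 0.40, edgeR adjusted p = 0.153). *Sp6*, *Tnfrsf19*, *Sox9* and *Jag1* had log2 fold changes of -0.31, 0.06, -0.01 and -0.00. With the hair shaft markers as a covariate, *Myc*, *Ccnd1*, *Lgr6* and the inhibitor *Igfbp4* were called lower too, which made 8 genes, while the same fit raised the calls over all genes to 507 higher and 614 lower. *Igfbp4* had 10.1 to 16.4 CPM in control and 6.14 to 10.05 CPM in *RoraEKO* libraries, just without overlap (log2 -0.71, SE 0.21, edgeR adjusted p = 0.0665). It was also called lower with library size alone, with DESeq2, with the likelihood ratio test, with the letter as a block and without control C6.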

How the data were processed

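RNA-seq was done on epidermis of 8 mice at P4, 4 per genotype label, from poly-A selected RNA. The authors demultiplexed with bcl2fastq 2.20.0.422, trimmed with Skewer, mapped to GRCm39 with STAR 2.5.3a and ran RSEM, whose expected counts for 55416 genes the authors deposited unscaled. Tool versions are from the submitters' processing notes. The annotation release and the strand setting are not given in the sources used here. Symbols and coordinates came from GENCODE release M39, in which 54749 identifiers were found.

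Expected counts were rounded, filtered with filterByExpr, scaled with TMM and tested over all genes with edgeR 4.0.16 in R 4.3.3, without covariates, in the legacy form of the quasi-likelihood test. Letters were tested with 2 degrees of freedom beside genotype. Standard errors are of the between-genotype difference in average log2 CPM, at a prior count of 2, and the differences within letters are on that scale too. Scripts were tested on simulated data. Named were the genes called in any fit on all 8 libraries or with genotypes that did not overlap, the most abundant genes of each role per length and, of the other pathway genes, those called, and further genes were named after their values were seen. The members and lists were chosen with earlier results of these data known. As alternatives, scaling used RLE or the library size, and tests were DESeq2 1.42.0, a likelihood ratio test and the non-legacy and robust forms, with other filters, the letter as a block, *Xist*, fibroblast or hair shaft markers as covariates, libraries without *Xist*, no fold cutoff, and each library left out. The hair shaft covariate and all alternatives for the other pathway genes were chosen after seeing the data. Plots were drawn with matplotlib 3.10.9.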

Additional observations from a re-analysis of the deposited data

Results flagged for a closer look

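A library far from the other 3 of its genotype was looked for in 74 groups of 4 values, 2 for each of the 37 Wnt genes tested. The limit used is one that about 1 in 20 such groups passes by chance, and 8 groups passed it. All 8 are control A1, so they are not independent of each other and are not set against that rate. The share of such groups over all genes is not given here. It was high for *Wnt11* (23.4 CPM, against 3.15 to 3.79 in the other control libraries), *Wnt3a* (9.40 CPM, against 0.938 to 1.53), *Wnt10b* (5.44 CPM, against 3.28 to 3.41), *Tcf7l1* (3.54 CPM, against 0.757 to 0.976), *Wif1* (2.66 CPM, against 0.437 to 0.71), *Dkk3* (1.75 CPM, against 0.601 to 0.765) and *Fzd2* (4.64 CPM, against 1.37 to 1.91). It was low for *Wnt7b* (73.6 CPM, against 123.5 to 131.5). The same library held the highest hair shaft marker sum, and the fit with that sum as a covariate was run for the genotype comparison alone.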

How the results depend on the processing

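*Wnt3* was called in each of 21 alternatives and *Wnt7a* in each of 20. A minimum of 10 counts in every library left *Wnt7a* out of the test, so that 0 Wnt genes were called higher, and leaving out single libraries gave 1 and 1 throughout. With the letter as a replicate block the same *Wnt7a* and *Wnt3* were called (1 higher and 1 lower), at log2 fold changes of 3.25 and -0.69, while over all genes the block called 420 higher and 579 lower. The letters are not shown to pair the samples: deviations from the genotype means correlated at 0.483 for A1 with A3 and at 0.131 to 0.436 within letter C, but at 0.05 for B1 with B4, and B4 correlated best with control A1 (0.282). Between letters, the count of 0 became 1 in the non-legacy form (*Fzd1*), and 17 of 48 Wnt genes when all genes with at least 1 count were tested. It became 3 without *RoraEKO* A3 (*Fzd1*, *Wls*, *Wnt11*) and 5 without control B1 (*Fzd1*, *Notum*, *Porcn*, *Wif1*, *Wls*), with a range of 0 to 5 over libraries left out. These letter counts stand without the shares over all genes in the same fits. The causes were not tested. For the other pathway genes, libraries without *Xist* gave 1 higher and 0 lower (147 and 167 over all genes), the hair shaft covariate gave 8 lower (507 and 614 over all genes), and the block added *Myc* and *Igfbp4* to those called lower, which made 6. Leaving out single libraries gave 1 to 5 higher and 3 to 5 lower, beside 174 to 383 and 283 to 513 over all genes. Of the 37 Wnt genes, 12 changed sign without control A1, 9 in libraries without *Xist*, 3 each with library size alone, the block and the hair shaft covariate, and 0 with RLE size factors. *Wnt7a*, *Wnt3*, *Wnt4* and *Tcf7l2* kept their sign in every alternative run on them, and 87 of the other counts stayed within 1.5 times. Over all genes, DESeq2 called 478 higher and 553 lower, against 302 and 423 here, the fit with *Xist* 182 and 290, and that without control B1 174 and 283. Library size alone moved the median log2 fold change of all genes to -0.097. Counts were low for *Wnt7a* in control (2 to 10 per library) and for *Tcf7l2* (19 to 32), which limits the precision of their values.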
